A study of Mus musculus with 20 samples.

Results

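The genes described here encode the ephrin, netrin and Slit families of axon guidance cues together with their receptors. They were taken from the count table by symbol: Eph receptors and ephrins, netrins and netrin-G proteins, Dcc, neogenin and the Unc5 receptors, Slits and Robos, the repulsive guidance molecules Rgma and Rgmb, Draxin, and the Wnt receptor Ryk. The rule used no measured value and found 45 genes among the 55487 in the table. The libraries were prepared from mouse subcerebral projection neurons collected on postnatal day 1. Cell bodies (somata) came from cortex, and growth cones, the motile tips of growing axons, from brainstem and spinal cord. Markers of other kinds of cells were also present, several at higher summed levels in growth cone libraries, as given below. Each compartment was sampled from wild-type (WT) mice and from mice null for Bcl11b (labelled KO), a transcription factor of these neurons, which gave 4 groups of 5 libraries. Growth cone libraries of both genotypes carry experiment numbers 7, 8, 9, 10 and 11. Somata of WT mice have the numbers 12, 14, 22, 25 and 26. For somata labelled KO the numbers are 14, 15, 22, 25 and 26. Values of single libraries are listed in that order. How the neurons were marked and collected, which Bcl11b allele was used, and whether a library is 1 animal or a pool are not given in the sources used here.

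Subcerebral projection neurons of cortical layer V send axons to brainstem and spinal cord, the corticospinal tract among them. Ephrins are membrane-bound ligands of the Eph receptor tyrosine kinases, and contact between cells that carry them mostly repels growth cones; ephrin-B3 at the spinal midline acts through EphA4 on corticospinal axons to keep them from crossing back. Netrins are secreted cues that attract axons through DCC and neogenin and repel them through Unc5 receptors. Slits repel axons that carry Robo receptors, repulsive guidance molecules act through neogenin, and Wnt proteins repel corticospinal axons through Ryk.

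Depth ran from 18962308 to 51205154 counts over the 20 libraries. Levels are given as CPM, counts relative to the library's total after TMM scaling over all 20 libraries, and means carry the SD over n = 5 libraries. A count of 0 allows up to 0.0586 to 0.158 CPM (3 counts), depending on the library, from counting error only. Bcl11b itself was not lower in the libraries labelled KO. WT somata held 582, 805, 789, 789 and 537 CPM and somata labelled KO 1175, 1142, 1128, 1079 and 1231 CPM; growth cones held 72.3, 115, 122, 98.3 and 96.7 CPM in WT and 69.7, 72, 138, 89.2 and 140.4 CPM under the KO label. It averaged 700.4 ± 129.6 CPM in WT somata and 1151 ± 56.6 CPM in somata labelled KO, a log2 difference of 0.74 with p = 0.00794 by an exact two-sided permutation test, the smallest p that regrouping 5 against 5 libraries allows. In growth cones it averaged 101 ± 19.3 CPM and 102 ± 35 CPM (exact permutation p = 0.944). Which exons the null allele lacks is not given, so counts over the whole gene do not check the deletion, and genotype is named by label throughout. Of 10 markers of subcerebral projection neurons all were detected, with summed levels of 1619 to 1925 CPM in somata and 638 to 954 CPM in growth cones. Between the soma groups 5 of these markers passed the threshold given below, which 0.731% of all genes tested passed. Crym (-2.20) and Pcp4 (-1.86) were lower and Etv1 (1.73), Diaph3 (1.70) and Tox (0.56) higher in somata labelled KO, as log2 fold changes (named after their values were seen). WT soma library 12 stood apart for guidance genes: it held the lowest WT soma value of 17 of the 29 genes of the set with a group mean over 5 CPM. Without it Ephb6 was still the 1 guidance gene called between soma groups (log2 fold change 1.28, adjusted p = 0.00170), and 14 guidance genes in place of 17 were called between WT compartments, Epha6, Epha10 and Rgma being lost.

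Most of the 45 genes were detected in both compartments. At least 1 CPM in every library was reached by 30 genes in WT growth cones, 28 in growth cones labelled KO, 29 in somata of WT and 28 in somata labelled KO. Ntn5, Epha1 and Epha2 were at or near 0 in every group, with highest counts of 13, 27 and 17 in any library. Robo4, Ntng2, Unc5b and Robo3 were sparse, with highest counts of 204, 91, 115 and 190 and libraries at 0 in 3 or 4 of the groups.

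**Figure D1:**
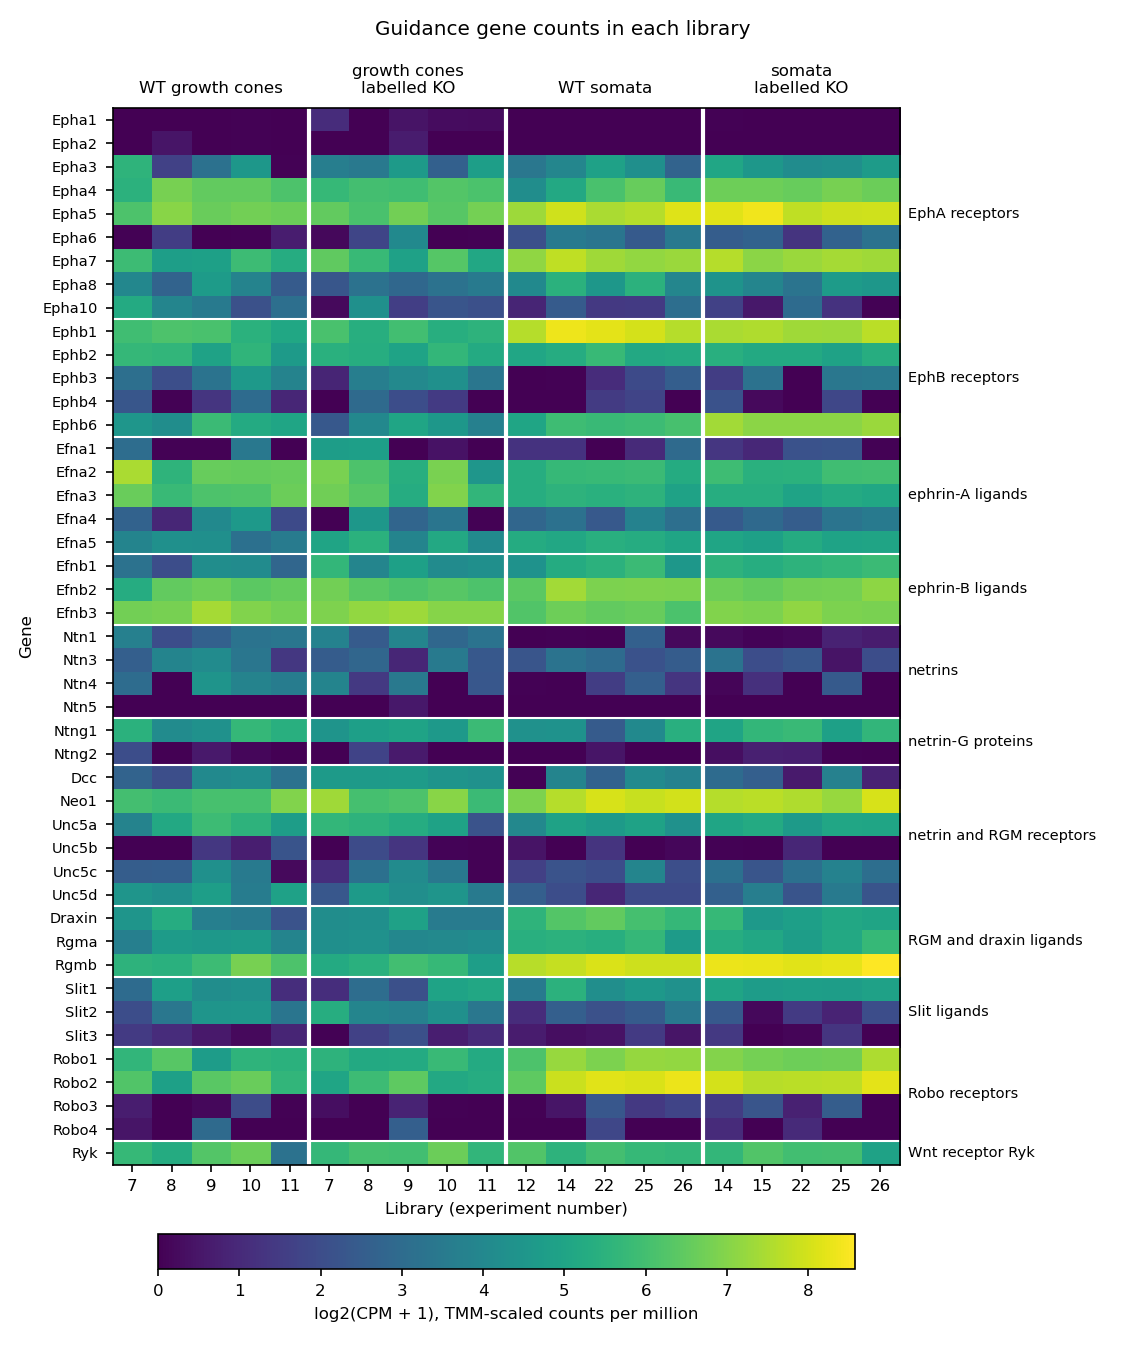
Levels of the 45 guidance genes (rows, grouped by role) in each of the 20 libraries (columns, by experiment number), coloured by log2(CPM + 1). Ntn5, Epha1 and Epha2 stay dark in every library. Epha5, Epha7, Ephb1, Rgmb, Robo1 and Robo2 are brighter across the soma libraries than across the growth cone libraries. The exceptions are Robo1 and Robo2 in WT soma library 12, which lie within the growth cone range.

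Length-scaled levels (CPM per kilobase of exon) put ephrins first in growth cones. The length covers all exons of the gene model, 2131 bases for Efna2 and 16739 for Epha5, whichever transcripts were present. The order of genes and the sums below depend on it. In WT growth cones Efna2 (47.4 ± 22.1 CPM per kb), Efnb3 (38.9 ± 8.41) and Efna3 (32.4 ± 7.66) led the order, with ranges that overlapped one another. Ryk came next at 12 ± 7.64 CPM per kb, and its libraries lay below all those of Efna3. In growth cones labelled KO the same 3 ephrins led, Efnb3 at 42.3 ± 4.99, Efna2 at 34 ± 19.7 and Efna3 at 32.5 ± 14.8 CPM per kb, and here the ranges of Efna3 and Ryk (14.4 ± 4.45) overlapped. WT somata were led by Ephb1 (36.4 ± 8.48 CPM per kb), Rgmb (30.8 ± 3.38), Efnb3 (27.1 ± 4.33) and Neo1 (24.3 ± 6.97), each overlapping the next. Somata labelled KO were led by Rgmb (41.8 ± 4.45), Efnb3 (38.2 ± 3.57) and Ephb6 (38.2 ± 3.75), and every library of Ephb6 lay above those of the fourth gene, Ephb1 (25.3 ± 2.85).

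Summed by role on the same length-scaled scale, EphA, EphB and Robo receptors were higher in somata, and ephrin-A ligands had the higher mean in growth cones. EphA receptors summed to 27 ± 3.53 CPM per kb in WT growth cones and 45.5 ± 8.75 in WT somata. For EphB receptors the sums were 22.1 ± 4.57 and 54.2 ± 10.6, and for Robo receptors 7.25 ± 1.30 and 22.2 ± 7.36. The RGM and draxin ligands summed to 15.4 ± 3.73 CPM per kb in WT growth cones and 50.7 ± 6.73 CPM per kb in WT somata. The direction was opposite for the ephrin-A ligands, at 91.3 ± 29.8 in WT growth cones and 54.3 ± 7.02 in WT somata, where growth cone library 8 fell within the soma range. Under the KO label ephrin-A sums scattered from 34.2 to 119 in growth cones, on both sides of somata at 46.7 to 58.1. In WT the ephrin-B ligands were close, at 53.9 ± 12.1 and 55.1 ± 11.3. Netrins were low in all groups and summed to 5.82 ± 2.42 and 1.70 ± 0.773 CPM per kb, Slits to 3.07 ± 1.87 and 4.15 ± 2.21. The netrin and RGM receptors summed to 20.8 ± 5.41 CPM per kb in WT growth cones and 31.3 ± 8.05 in WT somata, with overlap. Sums follow their most abundant genes. Gene by gene, the median WT log2 fold change of growth cones over somata was -1.02 for EphA and -1.31 for Robo receptors. It was 0.087 for EphB receptors and 0.64 for netrin and RGM receptors. These sums are descriptions, with no test.

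**Figure D2:**
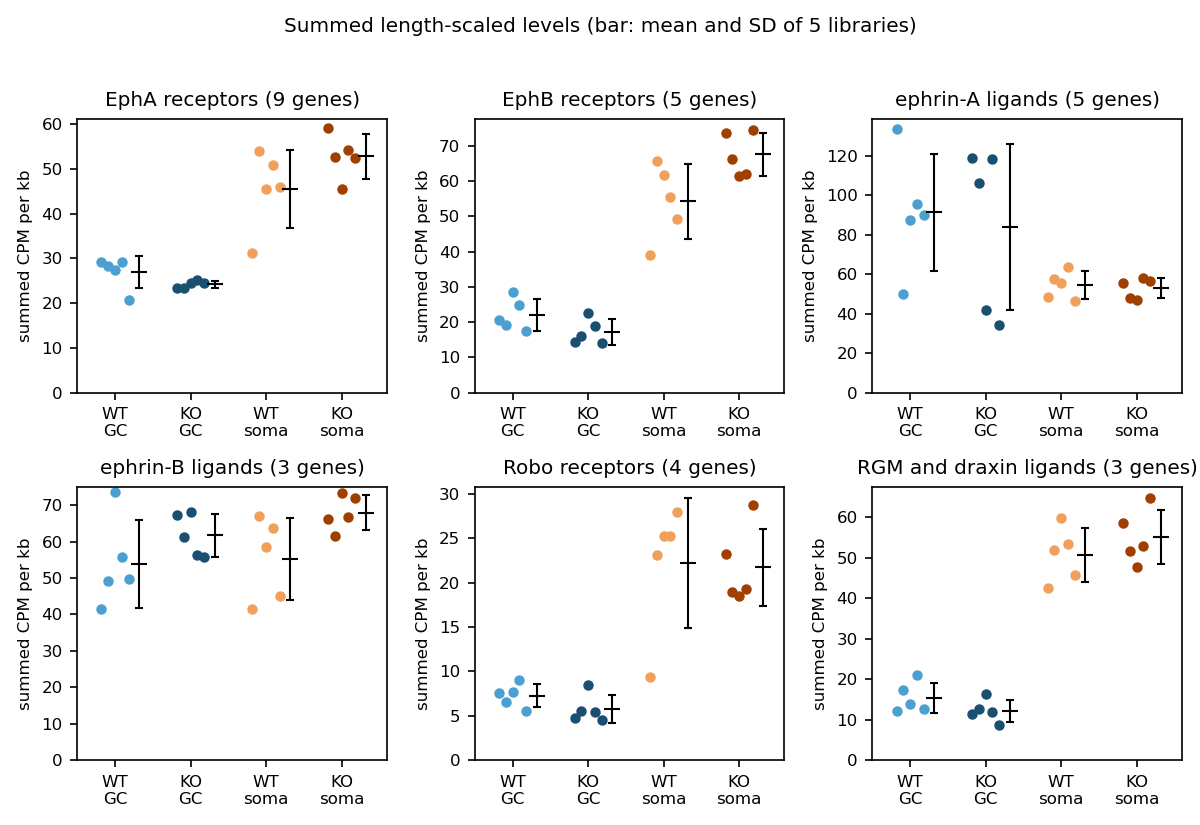
Length-scaled levels summed over the genes of 6 roles (y axis, CPM per kb; each panel has its own range starting at 0), 1 point per library for growth cones (GC) and somata of each genotype label, with mean and SD of 5 libraries. EphA, EphB, Robo and RGM and draxin sums are lower in growth cones of both labels, where each growth cone library has a smaller sum than any soma library. Ephrin-A sums run from 49.8 to 134 CPM per kb in WT growth cones and from 34.2 to 119 in growth cones labelled KO.

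The comparison of genotypes within somata asked which guidance transcripts differ between the cell bodies of the 2 labels. Each comparison was tested across all genes with enough counts by edgeR's quasi-likelihood F test, with Benjamini-Hochberg adjustment over all of them and an adjusted p under 0.05 as the threshold. The ± beside a log2 fold change is its standard error, and called means past that threshold with edgeR unless another tool or setting is named. The labels do not say that libraries are separate animals, so p-values measure the spread between these libraries. Epha1, Epha2, Ephb4, Ntn1, Ntn5, Ntng2, Robo4 and Unc5b had too few counts to be tested in somata. Of the 45 genes the other 37 were tested, and Ephb6 was the 1 that passed, higher in somata labelled KO (1.42 ± 0.17). Over all 14911 genes tested 0.731% passed, and a single call among 37 genes does not set the group of genes apart from that. The values of 3 of the 37 genes (8.11%), Ephb6, Rgmb and Efnb3, did not overlap between the soma groups, all higher in the libraries labelled KO. Of all genes tested 3.17% did not overlap, 1.87% in that direction. An unadjusted edgeR p under 0.05 was reached by 8 of the 37 (21.6%), beside 8.57% of all genes. The median log2 fold change was -0.036 over the 37 genes and -0.0030 over all genes tested. DESeq2 called 393 genes where edgeR called 109, and 5 of the 393 were in the set. These were Ephb6, Rgmb and Efnb3, higher, and Draxin and Ephb1, lower in somata labelled KO.

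Of 8 interneuron markers tested between soma groups 1 was called, beside 0.731% of all genes. It was Npy (2.06 ± 0.15, adjusted p = 0.000196, named after its value was seen), with means of 113 CPM in WT and 471 CPM under the KO label. The sum over all 9 interneuron markers ran from 116 to 187 CPM in WT somata and from 383 to 530.1 CPM in somata labelled KO. Without Npy the other 8 summed to 19.1 to 62.8 CPM and 11.4 to 54.8 CPM, overlapping ranges. The part of Npy-expressing cells in the soma results was not tested.

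In growth cones the same comparison called 0 of the 38 guidance genes tested, with Epha1, Epha2, Epha6, Ntn5, Ntng2, Robo3 and Robo4 not tested, and it called 0% of all 15419 genes with edgeR. With DESeq2 11 genes were called, 0 of them in the set. Unadjusted edgeR p-values were under 0.05 for 329 genes (2.13%) and for 2 of the 38 guidance genes (5.26%), Efna5 and Dcc. Of the 38 only Dcc (2.63%) did not overlap between the growth cone groups, beside 0.532% of all genes. Growth cone libraries spread more than soma libraries: over the 27 guidance genes above 5 CPM in every group, the median coefficient of variation was 42.3% in WT growth cones, 44.8% in growth cones labelled KO, 26.9% in somata of WT and 17.6% in somata labelled KO.

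An interaction term fitted to the 20 libraries asked whether the label difference was unequal in the 2 compartments. Of 42 guidance genes tested 0 passed, where 0.0397% of 17645 genes did. An unadjusted edgeR p under 0.05 was reached by 5 of the 42 (11.9%), against 6.98% of all genes. They were Ephb6 (-2.36 ± 0.55, adjusted p = 0.178), Rgmb (-1.01 ± 0.33, adjusted p = 0.433), Epha4 (-1.24 ± 0.45, adjusted p = 0.480), Efna5 (1.21 ± 0.44, adjusted p = 0.488) and Unc5d (-1.72 ± 0.76, adjusted p = 0.662). Values are the label difference in growth cones minus that in somata, on the log2 scale. DESeq2 called 273 genes where edgeR called 7, and 1 of the 273 was in the set, Ephb6 (-2.34, adjusted p = 0.00190).

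**Figure D3:**
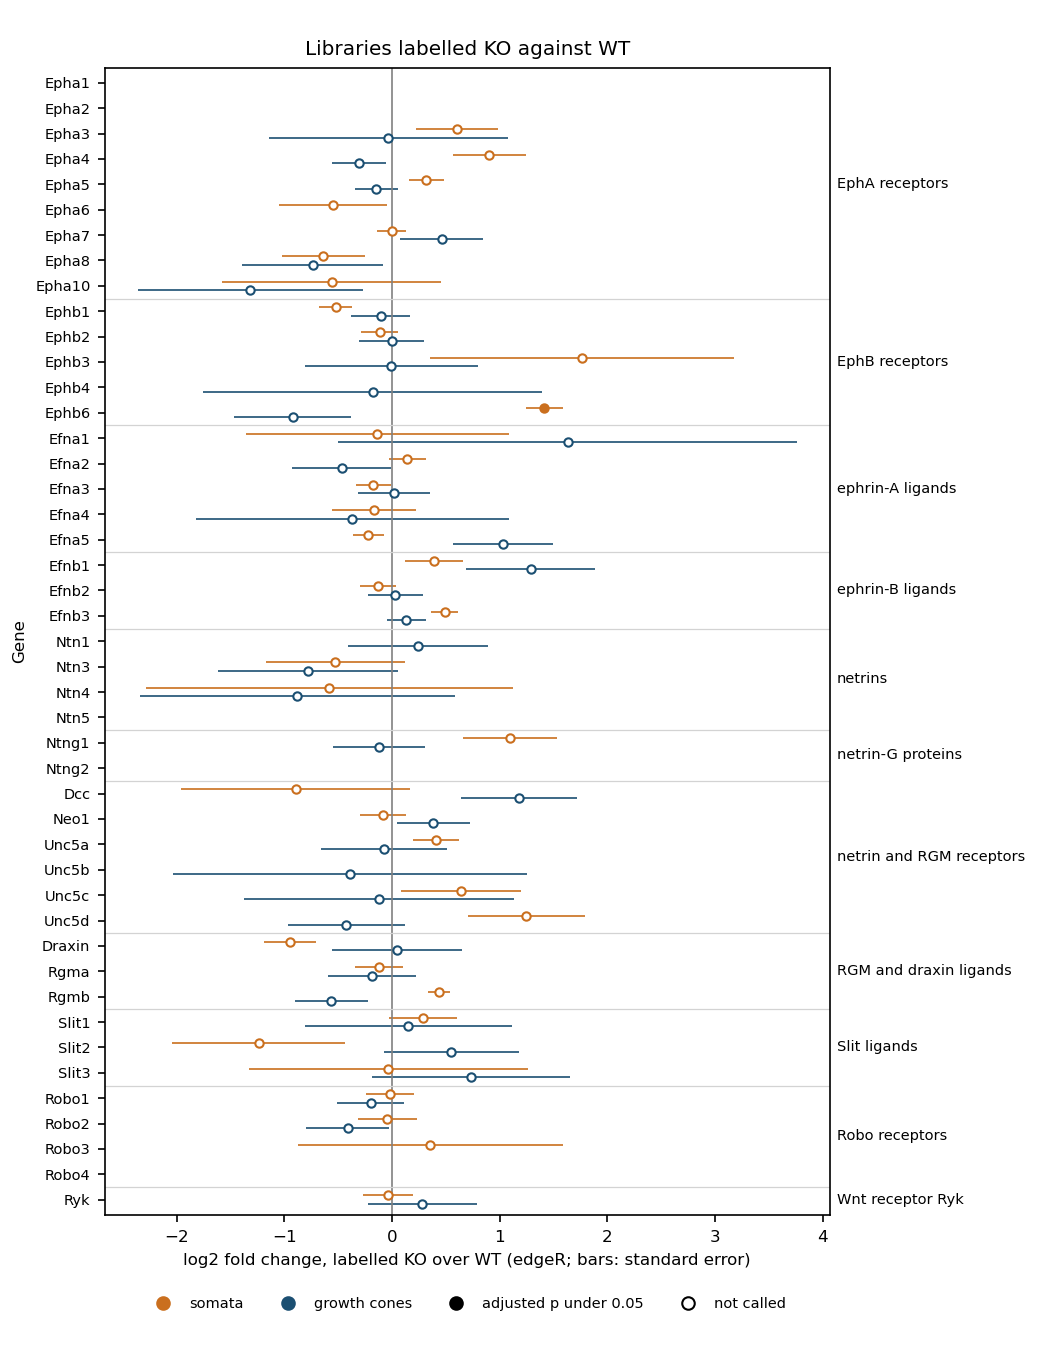
Log2 fold changes of guidance genes in libraries labelled KO over WT (x axis, edgeR, bars give the standard error), in somata (orange) and growth cones (blue), with genes grouped by role and filled points for an adjusted p under 0.05. The 1 filled point is Ephb6 in somata at 1.42, and growth cone bars are wider than soma bars for most genes.

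Growth cones were compared with somata within each genotype label to see which guidance transcripts were more or less abundant in the axon tip than in the cell body. In WT 17 of 40 genes tested passed, 5 higher and 12 lower in growth cones, where 42.8% of all 15128 genes passed (23.1% higher and 19.7% lower). In libraries labelled KO 14 of 39 passed, 4 higher and 10 lower, against 38.6% of 15410 genes (21.6% higher and 17% lower). The share of called guidance genes was near the background in both. Their median log2 fold change was 0.11 in WT and -0.11 in libraries labelled KO. Lower calls were Ephb1, Epha5, Epha7, Rgmb, Rgma, Neo1, Robo1 and Robo2 in both labels, Efna5, Efnb1, Draxin and Epha6 in WT, and Ephb6 and Epha4 in libraries labelled KO. Higher calls were Efna3 in both labels, Unc5d, Efna2, Efnb3 and Epha10 in WT, and Ntn1, Slit2 and Dcc in libraries labelled KO; no interaction passed, so these genes are not shown to differ between labels. The values of 12 guidance genes did not overlap between compartments in WT (37.9% of all genes did not) and of 12 in libraries labelled KO (36.9%). The 2 comparisons share no library. The 9 genes called in both, all in the same direction, were 52.9% of the WT calls and 64.3% of the calls in libraries labelled KO. Over the 39 genes tested in both, the log2 fold changes correlated with Pearson's r = 0.74 and Spearman's rho = 0.81, beside 0.83 and 0.85 over 14569 genes; these are descriptions across genes measured in the same libraries.

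Tissue, RNA input (0.19 to 3.1 ng for growth cones and 1.8 to 3.1 ng for somata) and experiment number differ with compartment and cannot be told apart from it. Summed markers of several other kinds of cells were higher in growth cones, while the sums for microglia and floor plate were not. Astrocyte and radial glia markers summed to 2459 to 3258 CPM in growth cones and 40.7 to 555 CPM in somata. Oligodendrocyte lineage markers summed to 589 to 2385 and 63.9 to 121 CPM, and markers of vessels, meninges, choroid plexus and blood to 667 to 1050.4 and 1.08 to 68.6 CPM. Interneuron markers summed to 703 to 983 CPM in growth cones, and microglia markers to 30.7 to 119 CPM there and 39.6 to 175 CPM in somata. The 15 hindbrain and spinal cord Hox genes summed to 58.8 to 229 CPM in growth cones, and all 15 were at 3 counts or fewer in every soma library. The 4 floor plate markers summed to 7.05 to 61.4 CPM in growth cones and more in somata (80.9 to 213 CPM). Foxa1 and Foxa2 were at 0 in every soma library, so the soma sums are those of Shh and Spon1. In growth cones of either label none of the 4 stayed at 3 counts or fewer throughout, Foxa1 and Foxa2 included. The part of these cells in the compartment differences was not tested. In bulk libraries fewer cells of a type and less RNA per cell cannot be told apart. TMM scaling left a median log2 fold change over all genes of 0.069 in WT and 0.11 in libraries labelled KO; upper quartile scaling moved it to 0.28 and 0.31.

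**Figure D4:**
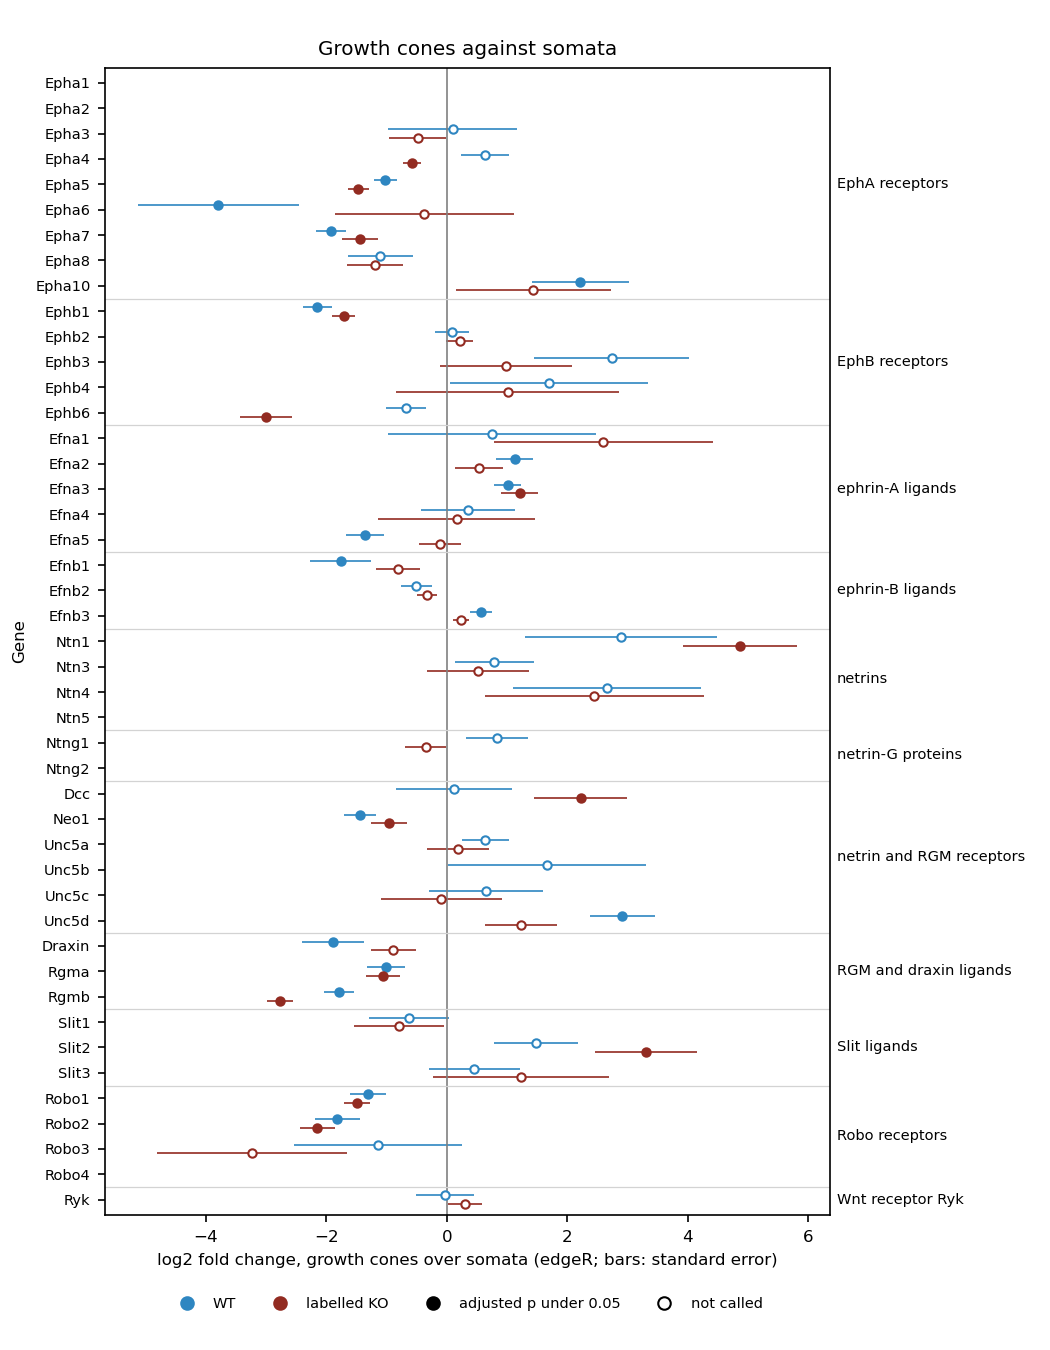
Log2 fold changes of guidance genes in growth cones over somata (x axis, edgeR, bars give the standard error) in WT libraries (blue) and libraries labelled KO (red), with filled points for an adjusted p under 0.05 and genes grouped by role. The 8 genes called lower under both labels lie left of 0 with both points filled, Efna3 is filled right of 0 under both, and Ephb6 is filled under the KO label only, at -2.999.

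Among EphB receptors, Ephb6, an Eph receptor whose kinase domain is inactive, was the guidance gene that rose in somata labelled KO (chr6:41605482-41620509 on the plus strand, GRCm38). It stood at 31.6, 59.6, 54.4, 57.4 and 66.7 CPM in WT somata and at 165, 134, 135, 134 and 153 CPM in somata labelled KO. The groups did not overlap, and WT library 12 was the lowest. The mean was 54 ± 13.3 CPM in WT and 144 ± 14.1 CPM under the KO label, a log2 fold change of 1.42 ± 0.17, adjusted p = 0.00334. Leaving out each library in turn kept the call (log2 fold change 1.28 to 1.502, adjusted p 0.00170 to 0.0146), but in the fit of all 20 libraries, which shares 1 estimate of the spread with the growth cones, the call was lost (1.42, adjusted p = 0.300). Growth cones held 21.4, 17.4, 55.8, 36.9 and 31.8 CPM in WT and 4.14, 14.8, 31.6, 22.3 and 12.3 CPM under the KO label. These groups overlapped, and the label difference of -0.92 ± 0.54, adjusted p = 0.999 was not called. Against somata, Ephb6 was lower in growth cones labelled KO (-2.999 ± 0.43, adjusted p = 0.000226), with no overlap, and gave -0.68 ± 0.33, adjusted p = 0.123 in WT, where the groups overlapped; without WT growth cone 9 the WT difference was called (-0.96, adjusted p = 0.0323).

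The bases before the starts of Ephb6 and Epha4 are shown. Ephb6 is the gene called between soma groups. Epha4 is among the 3 guidance genes whose windows held the motif searched for, and of these only Epha4 is among the genes given in every comparison. RefSeq promoter windows (GRCm38.p6, 250 bases before to 50 after each start) were matched by symbol for 39 of the 45 genes, 46 windows in all. The windows were searched on both strands for TGACCA, letters bound by the zinc fingers of Bcl11a, a close relative of Bcl11b. A match was found in 3 windows, those of Epha4, Epha10 and Epha6, while 13.6% of all 32851 windows held 1. The Ephb6 window had 34 CG dinucleotides and 76.3% G and C, against medians of 7 and 52.7% over all windows, and no match. The Epha4 window had 17 CG dinucleotides, and its match begins 86 bases before the start. Matches are descriptions of letters. The 250 bases before each start are printed 5′ to 3′ on the gene's strand, with the match, read there as TGGTCA, in capitals. Starts here are those of RefSeq, and for Ephb6 the printed stretch runs past the start of the count table's gene model given above. The Ephb6 stretch is chr6:41605261-41605510 (plus strand) and the Epha4 stretch chr1:77515089-77515338 (minus strand).
Ephb6: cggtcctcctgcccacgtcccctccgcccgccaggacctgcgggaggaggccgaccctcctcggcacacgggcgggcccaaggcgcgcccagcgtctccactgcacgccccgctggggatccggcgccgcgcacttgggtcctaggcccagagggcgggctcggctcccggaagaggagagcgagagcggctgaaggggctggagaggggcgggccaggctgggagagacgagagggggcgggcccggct
Epha4: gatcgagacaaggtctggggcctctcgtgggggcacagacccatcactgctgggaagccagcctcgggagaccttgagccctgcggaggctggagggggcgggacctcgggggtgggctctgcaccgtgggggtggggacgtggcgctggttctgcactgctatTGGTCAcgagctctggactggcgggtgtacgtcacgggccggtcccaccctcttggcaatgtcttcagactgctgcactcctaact

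Ephb1, an EphB receptor known from retinal and cortical axon guidance, was the highest length-scaled guidance gene of WT somata and fell in growth cones (chr9:101922128-102354693, minus strand). Its WT soma values were 197, 328, 297, 255 and 196 CPM and those of WT growth cones 61.1, 70.9, 68.7, 43.4 and 33.3 CPM, with no overlap (-2.15 ± 0.24, adjusted p = 2.72e-05). Under the KO label somata held 179, 185, 160.0, 157 and 206 CPM and growth cones 67.8, 40.0, 61.9, 40.1 and 45.9 CPM, again apart (-1.71 ± 0.19, adjusted p = 3.93e-05). Between soma groups the values overlapped, and the difference of -0.53 ± 0.15, adjusted p = 0.222 was not called by edgeR. Ephb2, Ephb3 and Ephb4 were not called by edgeR in any comparison they entered, and DESeq2 called Ephb3 higher in WT growth cones (2.82, adjusted p = 0.0306). Ephb2 ranged from 24.6 to 51 CPM in WT growth cones and from 32.3 to 54.1 CPM in WT somata, a difference of 0.087 ± 0.28. Ephb3 was sparse in WT somata (0 to 4.88 CPM) and ranged from 3.13 to 23.8 CPM in WT growth cones (2.74 ± 1.29, adjusted p = 0.106). Ephb4 had a highest count of 210 and was not tested between soma groups.

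Among EphA receptors, Epha4, the receptor through which corticospinal axons respond to ephrin-B3, had close values in the 5 somata labelled KO and scattered ones in WT somata (chr1:77367185-77515088, minus strand). WT somata held 17.6, 35.4, 68.6, 95.3 and 55 CPM and somata labelled KO 102, 102, 95.1, 111 and 99.7 CPM. WT library 25 fell within the range under the KO label and library 12 was the lowest, so the groups overlapped. The difference of 0.91 ± 0.34, adjusted p = 0.413 was not called. Growth cones held 44.1, 112, 89.9, 90.6 and 71.2 CPM in WT and 52.9, 63.2, 61.1, 76.6 and 70.0 CPM under the KO label, a difference of -0.31 ± 0.25, adjusted p = 0.999. Against somata, Epha4 was lower in growth cones labelled KO without overlap (-0.57 ± 0.15, adjusted p = 0.00952) and gave 0.63 ± 0.40, adjusted p = 0.222 in WT. The call under the KO label was lost with library totals alone (adjusted p = 0.0519), upper quartile scaling (0.0624) and the fit of all 20 libraries (0.110).

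Epha5 and Epha7, receptors of ephrin-A ligands that are abundant in developing cortex, fell in growth cones under both labels. Epha5 stood at 159, 246, 178, 197 and 280.1 CPM in WT somata and 71.7, 132, 97.3, 106 and 98.9 CPM in WT growth cones (-1.02 ± 0.20, adjusted p = 0.00123). In libraries labelled KO it stood at 293, 332, 215, 241 and 246 CPM in somata and 89.3, 68.6, 107, 80.0 and 109 CPM in growth cones (-1.47 ± 0.18, adjusted p = 6.39e-05). Compartments did not overlap under either label. Epha7 stood at 141, 212, 162, 146 and 156 CPM in WT somata and 57.4, 26.9, 28.2, 57 and 38.3 CPM in WT growth cones (-1.92 ± 0.25, adjusted p = 8.87e-05). Its values under the KO label were 196, 134, 156, 171 and 160.3 CPM in somata and 88.2, 54.3, 29.3, 79 and 34 CPM in growth cones (-1.44 ± 0.30, adjusted p = 0.00238). Here too every growth cone library lay below every soma library. Between genotype labels neither was called, with soma differences of 0.32 ± 0.17 for Epha5 and -0.0014 ± 0.13 for Epha7.

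Epha6 and Epha10, the latter a receptor without kinase activity, were low, and their WT calls were lost under several alternatives. Epha6 held 3.26, 10.5, 9.17, 4.43 and 10.1 CPM in WT somata and 0.0333, 1.93, 0, 0.0332 and 0.606 CPM in WT growth cones, without overlap (-3.79 ± 1.33, adjusted p = 0.0370). Among libraries labelled KO it held 4.75, 5.44, 1.45, 5.51 and 8.48 CPM in somata and 0.124, 2.46, 15.9, 0 and 0.0449 CPM in growth cones, where library 9 alone exceeded all somata (-0.37 ± 1.48, adjusted p = 0.868). Epha10 was at 0.847, 4.52, 1.66, 1.77 and 7.52 CPM in WT somata and 36.9, 14, 10.4, 3.32 and 7.85 CPM in WT growth cones, which overlapped (2.22 ± 0.80, adjusted p = 0.0417). Under the KO label it was at 2.18, 0.483, 6.94, 1.39 and 0.0311 CPM in somata and 0.166, 18.9, 2.01, 3.84 and 3.24 CPM in growth cones (1.44 ± 1.28, adjusted p = 0.411). The WT call of Epha6 was lost without any 1 of 8 libraries, with adjusted p up to 0.0683, and that of Epha10 without any 1 of 7, with adjusted p up to 0.148. Epha6 kept its call without WT growth cone 8 or 9, and Epha10 without WT growth cone 10 or 11 or WT soma 26. Both WT calls were also lost without the low-count filter (adjusted p = 0.0589 for Epha6 and 0.0659 for Epha10) and in the fit of all 20 libraries (0.0598 and 0.130). Epha3 and Epha8 were not called by edgeR in any comparison, with WT growth cone over soma differences of 0.10 ± 1.07 and -1.10 ± 0.54 and ranges in WT growth cones of 0.0319 to 46.2 and 4.56 to 25 CPM. Under the KO label Epha8 gave -1.19 ± 0.47, adjusted p = 0.0643, and it was called there with DESeq2 (adjusted p = 0.0175), in the fit of all 20 libraries (0.0477) and without growth cone 11 (0.0434) or soma 22 (0.0461); in WT it was called without growth cone 9 (0.0474). Epha1 and Epha2 had too few counts to be tested; without the low-count filter Epha1 was called higher in growth cones labelled KO than in their somata (adjusted p = 0.0441).

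Ephrin-A ligands are tethered to the membrane by a lipid anchor, and 2 of the 5 rose in WT growth cones. Efna3 was higher in growth cones under both labels (chr3:89313899-89322965, minus strand). WT growth cones held 96.7, 54.9, 70.6, 73.3 and 98.8 CPM and WT somata 39.7, 45.3, 42, 45.9 and 29.4 CPM, without overlap (1.01 ± 0.23, adjusted p = 0.00352). Growth cones labelled KO held 104, 80.3, 38.4, 123 and 48.8 CPM and their somata 39.8, 39.8, 30.2, 36.6 and 33.5 CPM (1.21 ± 0.31, adjusted p = 0.00868), and growth cone library 9 fell within the soma range. An antisense gene, Gm15998, covers 14.1% of the Efna3 exons on the opposite strand, and without stated strand use reads there cannot be told apart. Efna2 was at 177, 46.8, 94.2, 91.9 and 95.4 CPM in WT growth cones and 39.3, 52.6, 53.8, 56.3 and 37.5 CPM in WT somata; the difference was called (1.13 ± 0.31, adjusted p = 0.0105) with growth cone library 8 inside the soma range. In libraries labelled KO growth cones scattered from 21.7 to 115 CPM around somata at 58.8, 42.4, 43, 59.8 and 61.2 CPM, and the difference of 0.53 ± 0.40, adjusted p = 0.328 was not called.

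Efna5, a further ephrin-A ligand, went the other way in WT. It was at 13.6, 18.9, 18.1, 8.06 and 10.9 CPM in WT growth cones and 37.4, 34.5, 41.7, 38.6 and 32 CPM in WT somata, apart and lower in growth cones (-1.36 ± 0.31, adjusted p = 0.00421). Among libraries labelled KO growth cones spread over 30.7, 43, 13.7, 35.3 and 16.1 CPM and overlapped somata at 31.8, 28.1, 37.3, 30.3 and 31 CPM (-0.11 ± 0.35, adjusted p = 0.830). Between the growth cone groups 3 libraries labelled KO lay above all WT libraries and 2 within their range, a difference of 1.03 ± 0.46 with an unadjusted edgeR p of 0.0452 and an adjusted p of 0.999. Efna1 and Efna4 were not called in any comparison or alternative. Efna1 was under 10 CPM in every library except growth cone libraries 7 and 8 labelled KO, at 26.4 and 27.8 CPM. Efna4 ranged from 0.910 to 24 CPM in WT growth cones and from 4.26 to 13 CPM in WT somata, and a gene on the opposite strand covers 10.5% of its exons.

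Ephrin-B ligands span the membrane and can also signal into the cell that carries them. Efnb3, the midline repellent of corticospinal axons, was among the 3 highest length-scaled guidance genes in every group (chr11:69554092-69560205, minus strand). WT somata held 75.4, 102, 90.6, 94.9 and 69 CPM and somata labelled KO 122, 116, 141, 116 and 113 CPM. All 5 libraries labelled KO lay above all WT libraries, yet the difference of 0.49 ± 0.13, adjusted p = 0.142 was not called by edgeR. Growth cones held 106, 111, 171, 123 and 109 CPM in WT and 118, 144, 158, 127 and 127 CPM under the KO label, overlapping groups with a difference of 0.13 ± 0.18, adjusted p = 0.999. Efnb3 was higher in WT growth cones than in WT somata without overlap (0.57 ± 0.18, adjusted p = 0.0237), a call lost without WT growth cone 9 (adjusted p = 0.0657), WT soma 22 (0.0509) or WT soma 26 (0.0639), and without the low-count filter (0.0621). Under the KO label the compartment difference was 0.23 ± 0.13, adjusted p = 0.205, and upper quartile scaling called it (0.42, adjusted p = 0.0298).

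Efnb1, which lies on the X chromosome, was lower in WT growth cones. It stood at 8.35, 3.06, 17.4, 16.5 and 6.13 CPM there and at 19.6, 37.2, 44.7, 56.9 and 22.2 CPM in WT somata (-1.77 ± 0.51, adjusted p = 0.0152), apart, and the call was lost without WT soma 25 (adjusted p = 0.0544). In libraries labelled KO growth cones held 50.6, 13.8, 28.2, 16.5 and 18.4 CPM and somata 45.5, 39.1, 46, 50.1 and 56 CPM (-0.81 ± 0.36, adjusted p = 0.102); without growth cone library 7, the highest, the difference was -1.27, adjusted p = 0.00382. Between growth cone groups Efnb1 gave 1.29 ± 0.60, adjusted p = 0.999, with library 10 of both labels at 16.5 CPM. Efnb2 was not called in any comparison and ranged from 39 to 102 CPM in WT growth cones and from 83.6 to 165 CPM in WT somata (-0.51 ± 0.26, adjusted p = 0.129); without growth cone 7 labelled KO it was called lower in growth cones of that label (-0.49, adjusted p = 0.0255).

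Netrin-1, the secreted cue that attracts axons through DCC, was nearly absent from soma libraries (chr11:68209364-68400823, minus strand). Ntn1 was at 0, 0.0297, 0, 5.15 and 0.172 CPM in WT somata, where library 25 alone exceeded 1 CPM, and at 0.157, 0.0483, 0.105, 0.769 and 0.590 CPM in somata labelled KO. Growth cones held 12.4, 3.09, 5.14, 8.69 and 9.22 CPM in WT and 13, 4.52, 13.8, 6.27 and 8.54 CPM under the KO label, with a label difference of 0.24 ± 0.65, adjusted p = 0.999. Growth cones labelled KO exceeded their somata without overlap (4.86 ± 0.94, adjusted p = 0.00170). In WT the compartments overlapped through soma library 25 and the difference of 2.89 ± 1.59, adjusted p = 0.164 was not called; without that library it was 7.43, adjusted p = 0.00222. Ntn1 had too few counts to be tested between soma groups. Ntn3 and Ntn4 were not called in any comparison, with WT growth cone over soma differences of 0.79 ± 0.66, adjusted p = 0.365 and 2.66 ± 1.57, adjusted p = 0.194. Netrin-G1, a membrane-anchored relative that binds the adhesion protein Lrrc4c rather than DCC, was not called either. Ntng1 ranged from 4.55 to 40.9 CPM in WT somata and from 28.4 to 55.4 CPM in somata labelled KO, a difference of 1.10 ± 0.44, adjusted p = 0.470.

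Dcc, the attractive netrin receptor, was the 1 guidance gene whose growth cone groups did not overlap. It stood at 5.69, 3.20, 15.8, 17.2 and 8.42 CPM in WT growth cones and 24.5, 24.4, 25.1, 20.6 and 19.4 CPM in growth cones labelled KO. Every library labelled KO lay above every WT library, with means of 10.1 ± 6.18 and 22.8 ± 2.61 CPM. The difference of 1.18 ± 0.54 had an unadjusted edgeR p of 0.0498 and an adjusted p of 0.999 and was not called. Somata held 0.0314, 13.5, 5.43, 16.2 and 13 CPM in WT and 7.06, 4.98, 0.526, 12.5 and 0.777 CPM under the KO label, overlapping groups (-0.90 ± 1.06, adjusted p = 0.970). Growth cones labelled KO exceeded their somata (2.22 ± 0.77, adjusted p = 0.0395), a call lost without any 1 of 9 of the 10 libraries (adjusted p 0.0195 to 0.0812 over the 10), without the low-count filter and in the fit of all 20 libraries. In WT the compartments overlapped (0.11 ± 0.96, adjusted p = 0.940).

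Neo1, neogenin, which binds netrins and repulsive guidance molecules, was lower in growth cones under both labels. WT somata held 115, 194, 267, 229 and 255 CPM and WT growth cones 63.4, 56.8, 66.3, 66.7 and 122 CPM (-1.45 ± 0.27, adjusted p = 0.000945). Growth cone library 11 exceeded soma library 12, so the groups overlapped. Among libraries labelled KO somata held 195, 204, 187, 151 and 264 CPM and growth cones 163, 64.2, 71.1, 131 and 56.4 CPM (-0.96 ± 0.30, adjusted p = 0.0228), again with overlap, and the call was lost under upper quartile scaling (adjusted p = 0.0649) and without growth cone 8 (0.0513), growth cone 9 (0.0521) or soma 26 (0.0543).

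Unc5 receptors mediate repulsion by netrin, and Unc5d rose in WT growth cones. Unc5d stood at 21.4, 18.3, 26.8, 11 and 28.8 CPM there and 5.02, 3.03, 0.911, 2.75 and 2.81 CPM in WT somata, apart (2.91 ± 0.55, adjusted p = 0.00107). Under the KO label growth cones held 4.02, 24.2, 17.7, 20.9 and 10.2 CPM and somata 5.17, 11.7, 3.66, 10.5 and 3.70 CPM, which overlapped (1.23 ± 0.60, adjusted p = 0.132); without growth cone 7 of that label the difference was called (1.42, adjusted p = 0.0480). Between soma groups Unc5d gave 1.25 ± 0.54, adjusted p = 0.530. Unc5c, needed for normal corticospinal tract formation, was low and not called in any comparison. Its values were 4.72, 4.91, 18.9, 10.4 and 0.160 CPM in WT growth cones, 1.16, 7.95, 16.6, 9.66 and 0.0449 in growth cones labelled KO, 2.07, 3.57, 3.09, 13.8 and 3.16 in somata of WT and 7.90, 3.82, 7.95, 12.9 and 7.49 in somata labelled KO. All 4 groups overlapped, with label differences of -0.12 ± 1.25 in growth cones and 0.64 ± 0.56 in somata and compartment differences of 0.65 ± 0.95 in WT and -0.10 ± 1.00 under the KO label, where library totals alone and upper quartile scaling turned the sign. Unc5a was not called in any comparison (13.3 to 58 CPM in WT growth cones, 15.1 to 29.8 in WT somata), nor was Unc5b where it was tested.

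Rgmb, a membrane-anchored ligand of neogenin that also binds bone morphogenetic proteins, was the highest length-scaled guidance gene of somata labelled KO (chr17:15803188-15831039, minus strand). WT somata held 201, 224, 272, 243 and 241 CPM and somata labelled KO 317, 314, 288, 307 and 379 CPM. The groups did not overlap, with a difference of 0.44 ± 0.10, adjusted p = 0.09995 that edgeR did not call. Growth cones held 45.7, 42.6, 57.4, 111 and 72.1 CPM in WT and 37.2, 42.1, 62.6, 52.9 and 27.1 CPM under the KO label, which overlapped (-0.56 ± 0.34, adjusted p = 0.999). Growth cones lay below somata in every library under both labels, with differences of -1.80 ± 0.25, adjusted p = 0.000124 in WT and -2.77 ± 0.22, adjusted p = 3.44e-06 under the KO label. Rgma, a repellent of the same family, stood at 41.6, 44.4, 40.4, 51.2 and 25 CPM in WT somata and 12, 24.9, 22.6, 24.6 and 13.4 CPM in WT growth cones. These groups were apart by less than 1 CPM (-1.01 ± 0.32, adjusted p = 0.0225), and the call was lost with library totals alone, upper quartile scaling and without WT soma 12, 14 or 25 (adjusted p up to 0.0861). In libraries labelled KO Rgma held 39.3, 34.1, 26.2, 35.1 and 52.3 CPM in somata and 18.2, 19.3, 14.8, 15.4 and 17 CPM in growth cones, apart (-1.06 ± 0.28, adjusted p = 0.0106).

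Draxin, a secreted repellent that binds netrin-1 and DCC, was lower in WT growth cones and had the lowest p of the genes lower in somata labelled KO. WT somata held 46.1, 76.6, 89.1, 64.3 and 51.4 CPM and somata labelled KO 53, 24.1, 27.3, 34.6 and 31.2 CPM. Library 14 labelled KO lay within the WT range and the other 4 below it. The difference of -0.95 ± 0.24, adjusted p = 0.142 was not called, and it was called without that library (-1.17, adjusted p = 0.0477). Growth cones held 21, 38.3, 12.1, 10.5 and 3.61 CPM in WT and 17.4, 18.5, 29.1, 10.9 and 11 CPM under the KO label (0.048 ± 0.61, adjusted p = 0.999). Against somata WT growth cones were apart and lower (-1.89 ± 0.51, adjusted p = 0.0103), and under the KO label the groups overlapped (-0.89 ± 0.37, adjusted p = 0.0826). That difference was called with DESeq2 (adjusted p = 0.0404) and without growth cone 9 labelled KO (0.0242).

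**Figure D5:**
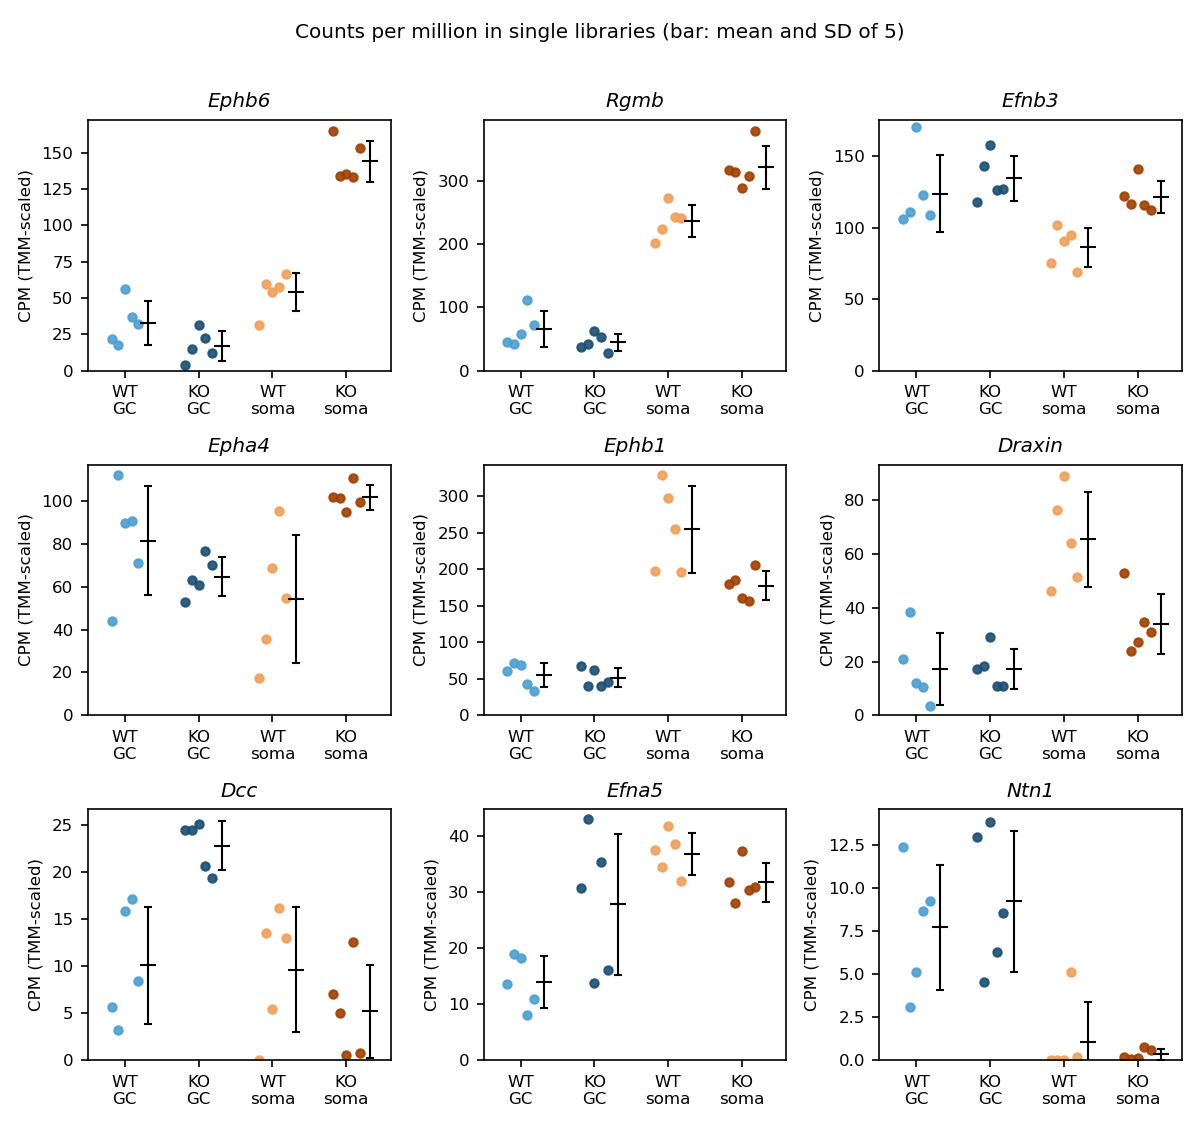
Levels of 9 guidance genes (y axis, TMM-scaled CPM, each panel with its own range from 0) in single libraries of growth cones (GC) and somata by genotype label, with mean and SD of 5 libraries (bars that would fall below 0 end at the axis). Ephb6, Rgmb and Efnb3 points of somata labelled KO lie above all WT soma points, and Dcc points of growth cones labelled KO lie above all WT growth cone points.

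Robo1 and Robo2, the Slit receptors of cortical axons, were lower in growth cones under both labels and gave no call between labels. Robo1 stood at 70.8, 152, 116, 147 and 145 CPM in WT somata and 48.6, 80.8, 25.9, 47.1 and 43.2 CPM in WT growth cones (-1.31 ± 0.30, adjusted p = 0.00381). Growth cone library 8 exceeded soma library 12, and no other pair overlapped. Among libraries labelled KO Robo1 held 125, 109, 102, 103 and 184 CPM in somata and 45.4, 35.7, 36.8, 55.5 and 36.4 CPM in growth cones, apart (-1.49 ± 0.22, adjusted p = 0.000252). Robo2 stood at 86.5, 235, 292, 273 and 319.7 CPM in WT somata and 74.6, 28, 82.4, 96.4 and 49.2 CPM in WT growth cones (-1.82 ± 0.38, adjusted p = 0.00212), where soma library 12 again lay within the growth cone range. Under the KO label Robo2 held 257, 201, 205, 209.6 and 298 CPM in somata and 32.1, 57.1, 86.6, 34.7 and 38.6 CPM in growth cones, apart (-2.15 ± 0.28, adjusted p = 0.000128). Between soma groups the differences were -0.022 ± 0.22 for Robo1 (95% interval -0.51 to 0.46) and -0.043 ± 0.28 for Robo2 (-0.64 to 0.56). Between growth cone groups they were -0.20 ± 0.31 (-0.88 to 0.48) and -0.41 ± 0.39 (-1.25 to 0.43). Robo3 was not called where tested, and Robo4 had too few counts for every pairwise comparison.

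Of the Slits, Slit2 was called higher in growth cones than in somata under the KO label. It stood at 39.3, 13.9, 12.6, 18.9 and 9.57 CPM in these growth cones and 4.25, 0.145, 1.74, 0.819 and 3.11 CPM in these somata, apart (3.31 ± 0.84, adjusted p = 0.00857). Between labels Slit2 was not called, with 0.55 ± 0.63, adjusted p = 0.999 in growth cones and -1.24 ± 0.80, adjusted p = 0.817 in somata. In WT it stood at 3.09, 9.46, 21.3, 21.5 and 8.97 CPM in growth cones and 1.13, 5.02, 3.38, 4.55 and 9.75 CPM in somata, which overlapped (1.48 ± 0.70, adjusted p = 0.107), and DESeq2 called this difference (1.57, adjusted p = 0.0412). Slit1 was not called in any comparison. It held 6.99, 27.6, 17.3, 18.7 and 1.18 CPM in WT growth cones and 1.16, 7.45, 3.25, 30.7 and 34.4 CPM in growth cones labelled KO, in overlapping ranges (0.15 ± 0.96, 95% interval -1.95 to 2.25). In somata it held 10.2, 44.5, 17.7, 22.8 and 19 CPM in WT and 31.2, 25.9, 27.2, 26.3 and 29.2 CPM under the KO label, where the 5 libraries were close (0.29 ± 0.32, adjusted p = 0.966). Growth cone over soma differences of Slit1 were -0.63 ± 0.67 in WT and -0.79 ± 0.75 under the KO label. Slit3 was low, with no call and a range of 0.166 to 1.76 CPM in WT growth cones.

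Ryk, the receptor through which Wnt5a repels corticospinal axons, was detected in every library. It stood at 52.1, 37.3, 76.3, 98 and 8.36 CPM in WT growth cones, 51.8, 64.9, 62.5, 99.4 and 48.7 CPM in growth cones labelled KO, 74.7, 45.7, 63.2, 52.7 and 49.6 CPM in WT somata and 49.6, 75.2, 62, 63.7 and 29.7 CPM in somata labelled KO. All groups overlapped. Label differences were 0.28 ± 0.51 in growth cones (95% interval -0.82 to 1.38) and -0.034 ± 0.23 in somata (-0.54 to 0.47). Compartment differences were -0.030 ± 0.47 in WT (-1.06 to 1.00), where scaling by library totals, upper quartile or DESeq2 turned the sign, and 0.30 ± 0.28 under the KO label (-0.31 to 0.91).

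Other genes of these pathways were read from 2 lists, 25 membrane partners and further ligands of the same receptors and 43 cytoplasmic effectors. Between soma groups, where 0.731% of all genes were called, 1 of 22 tested membrane partners was called, Wnt5a, which encodes the Ryk ligand. It held 21.6 ± 9.84 CPM in WT somata and 3.20 ± 1.17 CPM in somata labelled KO (-2.76 ± 0.40, adjusted p = 0.00652). Of 42 effectors tested there 1 was called, Fyn, a Src family kinase downstream of several guidance receptors, at 601 ± 40.8 and 430.2 ± 15.2 CPM (-0.49 ± 0.072, adjusted p = 0.00721). Between growth cone groups 0 of 23 and 0 of 43 were called. Against somata, 1 membrane partner rose and 7 of 23 fell in WT growth cones, and 2 rose and 9 of 22 fell under the KO label, with medians of -0.63 and -0.52 on the log2 scale. Of the effectors 3 rose and 11 of 42 fell in WT growth cones, and 2 rose and 12 of 43 fell under the KO label, with medians of -0.22 and -0.11. Over all genes 42.8% were called in WT and 38.6% under the KO label, and 19.7% and 17% were called lower. Most named genes of the lists were called under both labels. Lrrc4b, a synaptic adhesion protein of the netrin-G ligand family, rose (2.47 ± 0.34 in WT and 2.24 ± 0.22 under the KO label). Nell2, a ligand of Robo receptors, fell (-2.57 ± 0.17 in WT and -2.84 ± 0.15 under the KO label), as did Sdc3, a heparan sulfate proteoglycan (-1.29 ± 0.21 in WT and -1.37 ± 0.20 under the KO label), the latrophilin Adgrl2 (-1.62 ± 0.31 in WT and -1.13 ± 0.25 under the KO label) and Flrt2, a ligand of Unc5 receptors and latrophilins (-1.66 ± 0.31 in WT and -1.04 ± 0.21 under the KO label). Evl, an actin regulator of the Ena/VASP family, rose, with 877 ± 91.6 CPM in WT growth cones and 204 ± 7.28 CPM in WT somata (2.15 ± 0.11 in WT and 2.36 ± 0.19 under the KO label), and so did its relative Enah (1.27 ± 0.29 in WT and 1.24 ± 0.40 under the KO label). Ablim1, an actin-binding protein, fell (-2.05 ± 0.20 in WT and -2.20 ± 0.21 under the KO label). The small GTPase Rac1 (-1.21 ± 0.13 in WT and -1.12 ± 0.13 under the KO label), the adaptors Crk (-1.35 ± 0.17 in WT and -1.59 ± 0.31 under the KO label) and Nck2 (-1.62 ± 0.21 in WT and -2.03 ± 0.21 under the KO label) and the kinase Pak1 (-1.12 ± 0.15 in WT and -1.14 ± 0.12 under the KO label) fell as well. The latrophilin Adgrl1 was called under the KO label (0.52 ± 0.17, adjusted p = 0.0337) and gave 0.35 ± 0.21, adjusted p = 0.215 in WT. Myo10, a motor protein of filopodia, was called in WT (2.52 ± 0.95, adjusted p = 0.0498) and gave 0.85 ± 0.99, adjusted p = 0.538 under the KO label.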

How the data were processed

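The authors deposited raw, unscaled gene counts for the 20 libraries in a single table. Per the submitters' processing notes, Trimmomatic 0.39, STAR 2.7.1a and featureCounts 1.5.0 were used; use of strand and treatment of reads mapping to several places are not given in the sources used here. Per the labels' protocols, SMART-seq v4 cDNA went into Nextera XT libraries, a chemistry without molecular identifiers or strand marks, so floors from counts cover counting error only. The notes name the build GRCm39, but all 54435 gene IDs (98.1% of 55487) found in GENCODE release M21 have exactly its exon lists, so coordinates are GRCm38. A symbol was matched to 55141 genes. No column was left unmatched and no row names no gene (0 and 0).

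Each fit used edgeR 4.0.16 in R 4.3.3 (filterByExpr with minimum count 10, TMM, quasi-likelihood F test, Benjamini-Hochberg) on the 2 groups compared; the interaction used all 20 libraries. Standard errors were derived from the F statistics, and 95% intervals from them with the t quantile at each fit's degrees of freedom. Bcl11b was tested on log2(CPM + 0.5). Sums over markers use library totals alone. No replicate pair agreed within sampling noise (smallest chi-square per degree of freedom within a group 56.6).

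The genes, lists, and tests were chosen with earlier results of these data known. In each comparison guidance genes past the threshold are named, up to 12 per direction with every library; where fewer than 3 passed, the 3 with the lowest p are given. Epha4, Efnb3, Dcc, Unc5c, Robo1, Robo2, Slit1, Ntn1 and Ryk are given in all, and up to 3 genes per direction of each pathway list. Alternatives were library totals alone, upper quartile scaling, DESeq2 1.42.0, no low-count filter, a fit of all 20 libraries, the experiment number as a block, and each library left out.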

Additional observations from a re-analysis of the deposited data

Results flagged for a closer look

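In 8 of 100 groups of 5 libraries (25 guidance genes in 4 groups) 1 library lay farther from the rest than Dixon's 95% limit of 0.71 of the range; chance flags about 1 in 20 groups. In growth cones these were Efnb3 in WT library 9, at 171 CPM with the nearest library at 123 CPM, and Neo1 in WT library 11, at 122 CPM with the nearest library at 66.7 CPM. In libraries labelled KO they were Epha10 in growth cone library 8, at 18.9 CPM with the nearest library at 3.84 CPM, and Epha6 in growth cone library 9, at 15.9 CPM with the nearest library at 2.46 CPM. In WT somata Ntn1 and Unc5c were both high in library 25, Ntn1 at 5.15 CPM with the nearest library at 0.172 CPM and Unc5c at 13.8 CPM with the nearest library at 3.57 CPM. Epha7 was high in WT soma library 14, at 212 CPM with the nearest library at 162 CPM. In somata labelled KO Robo1 was high in library 26, at 184 CPM with the nearest library at 125 CPM.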

How the results depend on the processing

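Counts of called guidance genes stayed within 1.5 times under every alternative in the compartment comparisons (14 to 19 in WT, 12 to 16 under the KO label) and at 0 between growth cone groups. Between soma groups the count of 1 became 5 with DESeq2, 0 in the fit of all 20 libraries and 1 to 2 when 1 library was left out, and the interaction count of 0 became 1 with DESeq2. Over all genes, soma calls went from 109 to 393 with DESeq2, 30 in the fit of all 20 and 68 and 67 without soma 22 of WT or labelled KO; growth cone calls from 0 to 11 and 7; and interaction calls from 7 to 273 with DESeq2 and 12 and 11 without growth cone 7 of WT or labelled KO. The sign turned for Ryk in the WT compartment comparison with library totals (0.15), upper quartile (0.18) and DESeq2 (0.055), and for Unc5c under the KO label with library totals (0.042) and upper quartile (0.12). Leaving out 1 library turned the sign of 13 results, none of them called. These were, between growth cone groups, Bcl11b (-0.16 to 0.090), Robo1 (-0.36 to 0.023), Slit1 (-0.34 to 0.49) and Unc5c (-0.67 to 0.50). Between soma groups they were Robo1 (-0.20 to 0.052), Robo2 (-0.26 to 0.078) and Ryk (-0.16 to 0.13). Between compartments they were Dcc (-0.14 to 0.45) and Ryk (-0.34 to 0.24) in WT and Unc5c (-0.67 to 0.20) under the KO label, and in the interaction Ntn1 (1.94 as reported, -2.58 to 2.51, turned without WT soma 25), Robo1 (-0.36 to 0.017) and Slit1 (-0.66 to 0.17). The causes were not tested. Libraries were not treated as paired, since the labels do not say what experiment numbers share and not every same-numbered pair correlated over 0.1 (3 of 9 did). Deviations of same-numbered libraries correlated at 0.0310 to 0.114 in growth cones (5 of 5 best with their own number, a hint of pairing from the data) and 0.0234 to 0.148 in somata (2 of 4). With the replicate block, soma calls over all genes went from 109 to 34 and interaction calls from 7 to 0, Ephb6 kept its soma call, and the sign turned for Slit1 between growth cone groups (-0.74) and for Ntn1 (-0.95) and Robo1 (0.011) in the interaction; no count of guidance genes changed. Depth limits the sparse genes: those with few counts were not tested.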

Other observations

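The genotype differences of the 2 compartments were set side by side for the 35 guidance genes tested in both, from groups that share no library. The signs were the same for 13 of 35, and the log2 fold changes had Pearson's r = -0.15 and Spearman's rho = -0.13, beside 0.012 and 0.0023 over 13478 genes, as descriptions across genes of the same libraries.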
